A study of Mus musculus with 33 samples.

Results

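Of 30815 genomic regions counted in a mouse cardiac fibroblast line, 598 were bound by Gata4, Mef2c and Tbx5 together when the cells carried all 3 factors. Counts were scaled to a common library total (CPM), and enrichment was the log2 ratio of the CPM of a factor's summed libraries to those of the 9 summed input libraries, with 5 CPM added to each. A region counted as bound at a ratio of at least 1.5 (0.58 on the log2 scale), and a region was kept when all 3 factors passed in the three-factor cells. The regions were thus chosen by their enrichment in three-factor cells, and those values are given as a description. What the same regions showed when each factor was expressed alone was not used to choose them. The pooled input was shared by both, so enrichment of a factor alone is also described without a test. The kept regions were 1.94% of the regions and 2.91% of the base pairs counted.

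The study mapped where these factors sit on chromatin during direct cardiac reprogramming, by chromatin immunoprecipitation and sequencing (ChIP-seq). The cells came from 1 immortalized neonatal cardiac fibroblast line expressing large T antigen, of strain Cd-1 and genotype alpha-MHC-GFP. They received retroviruses for all 3 factors or for a single factor, were cultured with sb431542 and xav939, inhibitors of Tgfβ and Wnt signalling, and were harvested unsorted at day 2. Every group, inputs included, shared the line, the genotype and both inhibitors. There were 14 ChIP libraries from three-factor cells (6 of Gata4, 4 of Mef2c, 4 of Tbx5), 10 from single-factor cells (4, 3 and 3), 6 inputs of three-factor cells and 1 input for each single factor. A value "with the others" comes from three-factor cells, and a value "alone" from cells that received only that factor. Gata4 and Tbx5 were precipitated with goat antibodies of 1 supplier and Mef2c with a rabbit antibody of another, so factor and antibody differ together. Nothing ties the numbered libraries to separate cultures beyond the statement that they are biological replicates, and p-values measure the spread between these libraries only.

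Gata4 is a zinc-finger factor that recognises GATA sequences, Mef2c a MADS-box factor that recognises AT-rich MEF2 sites, and Tbx5 a T-box factor. In the developing heart they activate many of the same cardiomyocyte genes and can contact one another. Introduced together into fibroblasts, they are known to start conversion towards cardiomyocyte-like cells.

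Counts over all regions ranged from 222761 to 2377616 per ChIP library and from 97474 to 301678 per input. Some libraries stood apart. The Gata4 libraries 1 and 6 of three-factor cells showed no difference beyond sampling noise (chi-square test, p = 0.151), nor did inputs 1 and 3 or inputs 2, 4 and 5, and each such set was counted as 1 sample. Library 4 of Gata4 alone lay close to input: 12.7% of the 598 regions reached the threshold in it, against 29.1% to 29.9% in the other 3. Over all regions these shares were 9.92% and 20.4% to 22.0%. Library 4 was left out of the Gata4 alone enrichment by the rule and kept in the tests. The input of Tbx5 alone, the shallowest library, placed 23.9% of the 598 regions at or above the threshold, against 2.84% to 10.5% in the other inputs. Over all regions it placed 19.8% there, against 3.41% to 14.4% in the other inputs. Chromosome Y reads in the Gata4 libraries of three-factor cells ranged from 138 to 209 CPM in numbers 1, 3 and 6 and from 1.06 to 25.6 CPM in numbers 2, 4 and 5. Inputs of those cells read 37.5 to 43.1 CPM in numbers 1, 3 and 6 and 0 to 10.3 CPM in the others, and number 3 was highest for Mef2c (11.7 CPM) and Tbx5 (11.7 CPM), whose other libraries read at most 1.74 CPM. Gata4 alone read 284 and 260 CPM in libraries 2 and 3 and 45.5 and 18 CPM in 1 and 4. The part of whatever separates these libraries in the results was not tested. A choice from numbers 2, 4 and 5 of each factor gave 645 regions, 548 of them among the 598.

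The bound calls depended on scaling. CPM by totals over these regions put the median region below input for every factor, and trimmed-mean (TMM) scaling raised the median enrichment by 0.39, 0.91 and 0.71 for Gata4, Mef2c and Tbx5 with the others. The corresponding shifts alone were 0.58, 1.34 and 0.72. Under TMM scaling 3009 regions passed for all 3 factors, all 598 among them. An edgeR test against inputs gave 1310, of which 584 were shared.

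With the others, the 598 regions had a median enrichment of 1.05 for Gata4 (range 0.59 to 2.29), 1.21 for Mef2c (0.59 to 3.19) and 1.12 for Tbx5 (0.59 to 2.85). Over all regions the medians were -0.38, -0.91 and -0.67, and 19.9%, 23.3% and 23.5% of regions reached the threshold. Those shares are given as background to a count that the rule fixed. The weakest of the 3 enrichments reached 1 at 126 regions and 1.5 at 15. Near the threshold, 164 kept regions had their weakest factor less than 0.1 above it, and 208 regions missed it by less than 0.1. Mef2c was the most enriched factor at 268 of the regions, Tbx5 at 193 and Gata4 at 137.

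**Figure D1:**
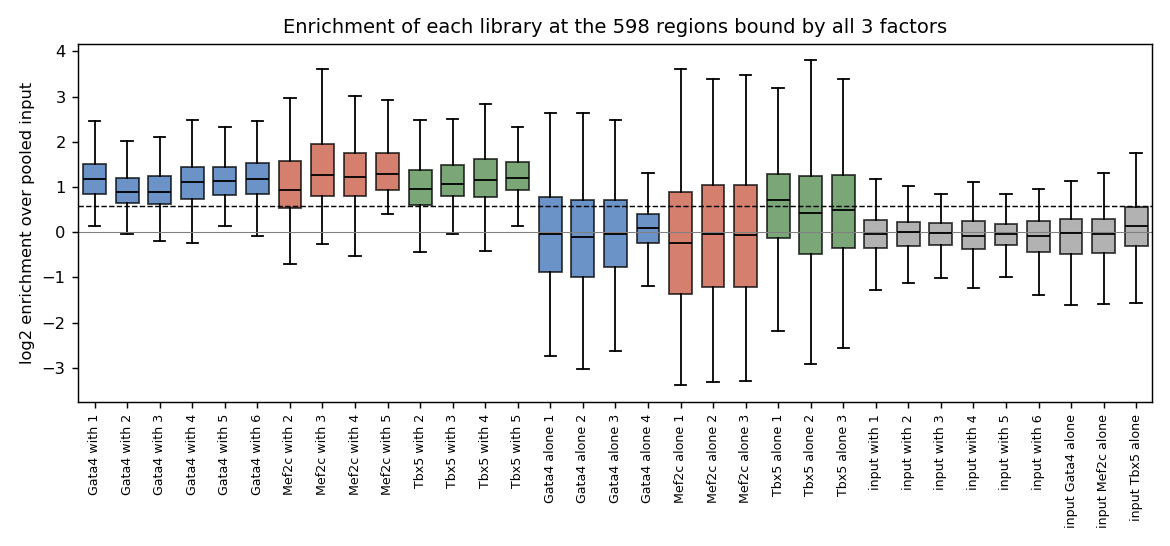
Log2 enrichment over pooled input at the 598 regions, 1 box per library (box, quartiles; line, median; whiskers, values within 1.5 box lengths); the dashed line marks the threshold for a bound region. All 14 three-factor ChIP libraries have medians between 0.88 and 1.29, Gata4 and Mef2c alone have medians from -0.23 to 0.09 and Tbx5 alone from 0.42 to 0.72, and the box of library 4 of Gata4 alone is narrow, as in the inputs.

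Single libraries agreed on a smaller core. All 6 Gata4 libraries placed 314 of the 598 regions above the threshold, all 4 Mef2c libraries 371 and all 4 Tbx5 libraries 369. Those were 52.5%, 62.0% and 61.7% of the 598, against 6.16%, 12.2% and 13.9% of all regions. All 14 libraries placed 138 regions above the threshold, 23.1% of the 598, against 0.448% of all regions. The same libraries chose the regions, so these counts are a description. The choice was repeated on ChIP numbers 2, 4 and 5 and read in ChIP number 3. The same pooled input served for the choice and the reading, so only the ChIP libraries were held out, and the values are a description. In library 3, Gata4 was bound at 73.0% of those 645 regions (17.1% of all regions), Mef2c at 81.6% (20.3%) and Tbx5 at 81.1% (22.1%). All 3 factors were bound there at 337 of the 645, or 52.2%, against 1.46% of all regions.

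The share of all counts that fell in the 598 regions is a description, since the regions were chosen for high counts in three-factor ChIP libraries. It was 6.0% ± 0.561 (SD, n = 5) for Gata4 with the others, 7.19% ± 0.523 (n = 4) for Mef2c and 6.42% ± 0.385 (n = 4) for Tbx5. Alone, it was 3.02% ± 0.184 (n = 4) for Gata4, 4.08% ± 0.0901 (n = 3) for Mef2c and 4.81% ± 0.173 (n = 3) for Tbx5. Inputs of three-factor cells gave 2.48% ± 0.0525 (n = 3), and the single-factor inputs 2.51%, 2.52% and 2.99%. The single-factor ChIP libraries, which did not choose the regions, lay above every input except for library 4 of Gata4 alone at 2.74%.

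When expressed alone, Tbx5 bound more of the 598 regions by the rule than either other factor did. Tbx5 alone was bound at 286 of them, or 47.8% (95% Wilson interval 43.8% to 51.8%), against 20.5% of all regions. Mef2c alone was bound at 195, or 32.6% (29.0% to 36.5%), against 19.1%. Gata4 alone was bound at 179, or 29.9% (26.4% to 33.7%), against 21.3%. These intervals treat regions as independent and cover counting error only. At the 2890 regions bound by exactly 2 factors with the others, Tbx5, Mef2c and Gata4 alone were bound at 47.4%, 19.0% and 32.3%. The lead of Tbx5 was thus not particular to the 598. The median enrichment alone was 0.56 for Tbx5, -0.10 for Mef2c and -0.06 for Gata4, with this scaling by totals. Under TMM scaling these medians were 1.33, 1.5 and 0.57. Below-input values alone occurred at 306 regions for Gata4 (51.2%, against 66.2% of all regions), 318 for Mef2c (53.2% against 75.8%) and 190 for Tbx5 (31.8% against 70.6%). The median level was 36.6 CPM alone and 91.1 CPM with the others for Gata4, 35.2 and 106 CPM for Mef2c, and 58.6 and 96.0 CPM for Tbx5. With the 598 regions kept but TMM scaling used, Gata4, Mef2c and Tbx5 alone were bound at 49.2%, 69.4% and 73.1%. With the edgeR test against inputs these shares were 41.8%, 60.5% and 61.4%, so the gap between Mef2c and Tbx5 depended on the setting, while Gata4 was lowest in these 3 settings.

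The combinations of factors bound alone were spread over every possibility. No factor was bound alone at 196 regions, 32.8% (29.1% to 36.6%) of the 598, against 45.1% of all regions and 30.2% of the 2890 regions bound by exactly 2 factors with the others. At 97 of the 196, all 3 factors alone lay below input, and at 50 at least 1 lay less than 0.2 under the threshold. Exactly 1 factor was bound alone at 203 regions: Tbx5 at 120 (20.1%), Mef2c at 50 (8.36%) and Gata4 at 33 (5.52%). A pair was bound at 140 regions, with Gata4 and Tbx5 at 54 (9.03%), Mef2c and Tbx5 at 53 (8.86%) and Gata4 and Mef2c at 33 (5.52%). All 3 factors alone were bound at 59 regions, or 9.87% (7.73% to 12.5%), against 0.360% of all regions and 1.07% of those bound by exactly 2. These shares moved with scaling: the unbound share was 10.0% under TMM scaling and 16.6% with the edgeR test, and the share bound by all 3 alone was then 36.5% and 26.4%.

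**Figure D2:**
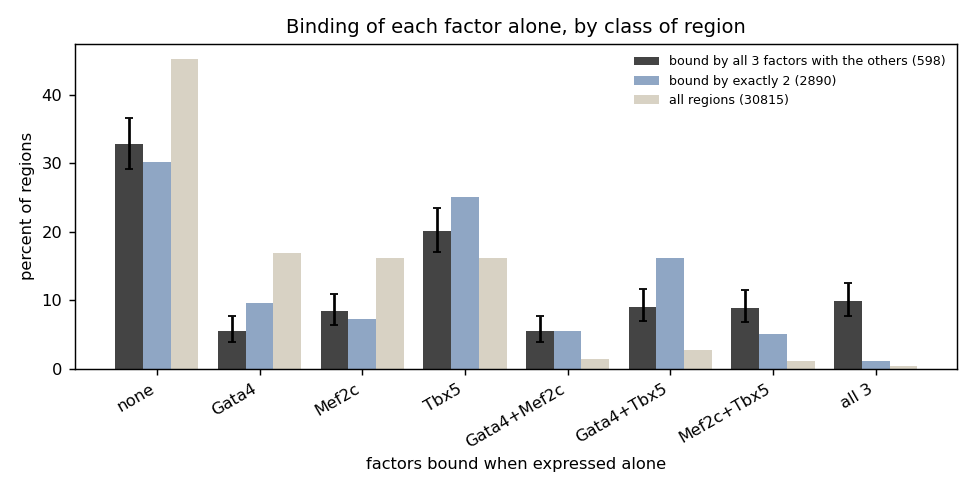
Percent of regions (y axis) by which factors were bound when expressed alone (x axis), for the 598 regions bound by all 3 factors with the others, the 2890 bound by exactly 2 and all 30815; bars on the 598 are 95% Wilson intervals, which cover counting error only. The 598 exceed all regions in every class with 2 or 3 factors bound alone and in the Tbx5 class, and 59 of them were bound by each factor alone.

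Read the other way, 111 regions of the table were bound by each of the 3 factors alone, and 59 of these, 53.2%, were among the 598. Regions bound alone by Mef2c and Tbx5 were among them in 14.6% of cases (53 of 364). For Gata4 and Mef2c the share was 7.91% (33 of 417), and for Gata4 and Tbx5 6.27% (54 of 861). Regions bound alone by 1 factor were among the 598 in 2.42% (Tbx5), 1.00% (Mef2c) and 0.636% (Gata4) of cases, and regions bound alone by none in 1.41%. With TMM scaling of the alone calls, 1312 regions were bound by each factor alone and 218 of them, 16.6%, were among the 598; with the edgeR test it was 158 of 531, or 29.8%.

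Binding by 1 factor alone went with binding by another alone at these regions. Of the 179 regions bound by Gata4 alone, 92 (51.4%) were also bound by Mef2c alone, against 8.03% of all regions bound by Gata4 alone. Likewise 113 of the 179 (63.1%) were also bound by Tbx5 alone, against 14.8%. Of the 195 bound by Mef2c alone, 112 (57.4%) were also bound by Tbx5 alone, against 8.06%. The shares of all 598 bound alone by Mef2c and by Tbx5 were 32.6% and 47.8%, closer to these values than the all-region shares. Across the 598 regions, Spearman's rho between enrichments alone was 0.45 for Gata4 and Mef2c, 0.30 for Gata4 and Tbx5 and 0.24 for Mef2c and Tbx5, and over all regions it was -0.09, 0.11 and 0.04. Points share the pooled input in the denominator, so these are descriptions. With the others, the same coefficients across the 598 were -0.01, 0.25 and -0.02, in a range cut off at the threshold for every factor.

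A factor's binding with the others was less often matched alone at these regions than at the other regions it bound with the others. Gata4 bound 5519 other regions in three-factor cells and was bound alone at 63.4% of them, against 29.9% of the 598. For Mef2c the shares were 66.6% of 6570 and 32.6%, and for Tbx5 75.4% of 6655 and 47.8%. Under TMM scaling of the alone calls the pairs of shares were 78.3% and 49.2%, 89.1% and 69.4%, and 89.1% and 73.1%. With the edgeR test they were 71.1% and 41.8%, 84.2% and 60.5%, and 80.7% and 61.4%. The order was the same for the 3 factors in those 3 settings, and it held for regions of at least 300 bp and for narrower ones. No test was made, because the three-factor values chose both sets.

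Matching the level of enrichment with the others left the same order. In the range from the threshold to 1, Gata4 was bound alone at 16.4% of the 598 regions in that range and at 58.4% of the other regions it bound. At 1.5 and over, the shares were 51.4% and 80.9%. Mef2c went from 10.2% against 53.3% in the lowest range to 57.7% against 86.6% in the highest. Tbx5 went from 28.1% against 63.9% to 80.4% against 93.0%. In both sets, regions more enriched with the others were more often bound alone, and the sets were closest for Tbx5 at its most enriched regions.

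**Figure D3:**
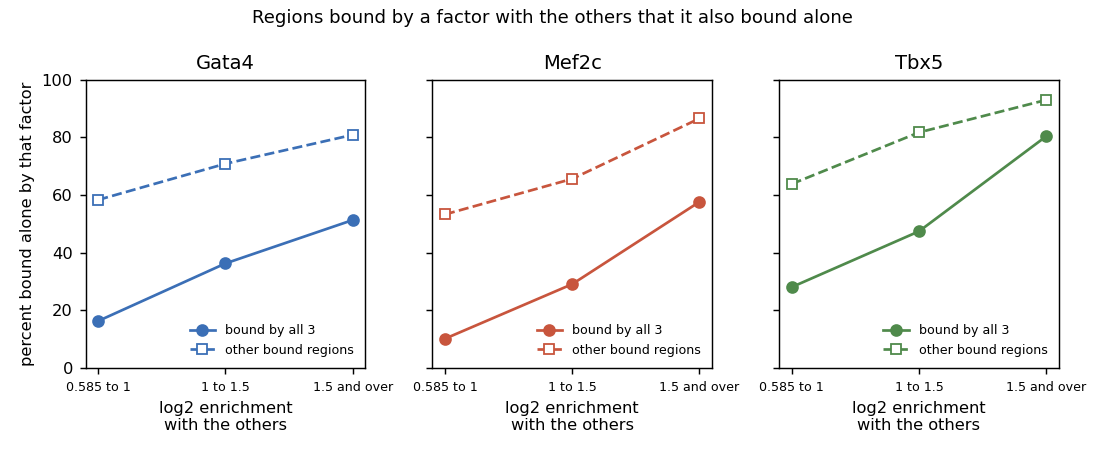
Percent of regions bound alone by a factor (y axis) against that factor's log2 enrichment with the others, in 3 ranges (x axis), for the 598 regions (filled circles) and the other regions the factor bound with the others (open squares). The filled circles lie below the squares in all 9 positions, from 10.2% against 53.3% for Mef2c in the lowest range to 80.4% against 93.0% for Tbx5 in the highest.

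Regions bound by exactly 2 factors with the others lay between. Where Gata4 and Tbx5 were bound without Mef2c (1703 regions), Gata4 alone was bound at 38.5% and Tbx5 alone at 58.4%. Where Gata4 and Mef2c were bound without Tbx5 (556 regions), Gata4 alone was bound at 48.2% and Mef2c alone at 55.6%. Where Mef2c and Tbx5 were bound without Gata4 (631 regions), Mef2c alone was bound at 37.1% and Tbx5 alone at 55.0%. Each of these 6 shares was above that factor's share at the 598. The factor missing with the others was bound alone at 0.294%, 5.22% and 1.58% of these regions.

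The log2 difference between a factor with the others and alone had a median at the 598 of 1.13 for Gata4, 1.32 for Mef2c and 0.60 for Tbx5, against 0.12, 0.31 and 0.02 over all regions. Gata4 was higher with the others by at least 1 at 325 of the 598, against 15.4% of all regions. It was lower by that much at 0, against 10.5% of all regions. Mef2c was higher at 350, against 19.1% of all regions, and lower at 0, against 8.4%. Tbx5 was higher at 212, against 11.2% of all regions, and lower at 2, against 5.29%. The regions were chosen for high values with the others, so nothing is read from these counts. All 3 factors were higher by at least 1 at 150 of the 598, against 4.65% of all regions. No factor was past 1 in either direction at 166 of the 598, against 50.6% of all regions. Under TMM scaling Mef2c was lower by at least 1 at 49.

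The regions with the highest weakest enrichment were chosen for high values with the others, so their height over values alone is a description. The first of them lies on mm9 chr12:105240791-105241166, 376 bp, and each factor was bound there alone. With the others, Gata4 read 194, 130, 142, 199 and 151 CPM in its 5 samples. Mef2c read 159, 227, 159 and 144 CPM and Tbx5 100, 147, 167 and 139 CPM. Alone, Gata4 read 149, 142, 176 and, in library 4, 18 CPM. Mef2c alone read 264, 225 and 240 CPM, and Tbx5 alone 225, 257 and 278 CPM. Tbx5 alone was above every sample of Tbx5 with the others, and Mef2c alone overlapped the highest Mef2c sample with the others. Inputs read 18.1 to 55.9 CPM except that of Tbx5 alone, at 113 CPM.

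A second region bound by each factor alone lies on chr19:36194554-36195041, 488 bp, and its strongest signal was Mef2c. Mef2c with the others read 441, 397, 362 and 313 CPM, and alone 234, 303 and 293 CPM, so every sample with the others was above every sample alone. Gata4 read 278, 224, 198, 261 and 236 CPM with the others, and alone 163, 193, 136 and 26.9 CPM, with library 4 again lowest. Tbx5 read 171, 190, 191 and 187 CPM with the others and 111, 117 and 84.7 CPM alone, without overlap. The input of Tbx5 alone read 144 CPM, above all 3 Tbx5 alone libraries, so the call for Tbx5 alone rests on the pooled input. At 759 bp from end to end, this region and a neighbour bound alone by Mef2c and Tbx5 formed 1 of the closest pairs among the 598.

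The region on chr13:91025549-91026125, 577 bp, was bound alone by Tbx5 only. Tbx5 read 251, 203 and 174 CPM alone and 224, 299, 264 and 249 CPM with the others, with overlap. Gata4 read 31.0, 57.5, 68.2 and 49.4 CPM alone and 316, 239, 287, 278 and 245 CPM with the others. Mef2c read 74.0, 68.2 and 101 CPM alone and 211, 287, 195 and 195 CPM with the others. Gata4 and Mef2c did not overlap between alone and with the others.

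At chr16:38672576-38673191, 616 bp, no factor was bound alone. Gata4 read 57.9, 69.4, 63.8 and 85.3 CPM alone, against 295, 181, 260, 190 and 221 CPM with the others. Mef2c read 25, 43.4 and 26.6 CPM alone, against 125, 206, 149 and 169 CPM with the others. Tbx5 read 88.6, 26.9 and 54.1 CPM alone, against 203, 236, 165 and 212 CPM with the others. The groups did not overlap for any of the factors, and the inputs read 34.6 to 66.5 CPM, in the range of the libraries alone.

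The region on chr10:107377445-107377795, 351 bp, was bound alone by Mef2c and Tbx5. Mef2c alone read 106, 120 and 105 CPM, and Tbx5 alone 124, 105 and 70.6 CPM. Gata4 alone stayed at 37.3, 27.1, 52.8 and 35.9 CPM, and reached 224, 150, 166, 159 and 182 CPM with the others. Inputs here read 10.3 to 60.0 CPM, the lowest being that of Tbx5 alone. The region is the last of the largest group of neighbours among the 598, 3 regions within chr10:107358816-107377795, where the alone patterns were Gata4 only, none, and Mef2c with Tbx5.

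**Figure D4:**
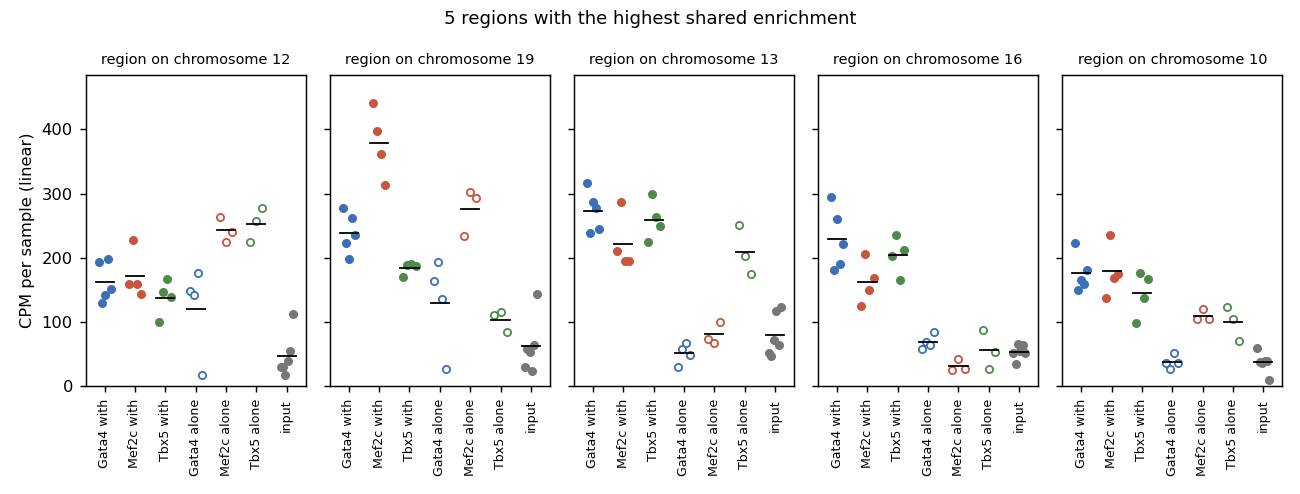
CPM of each sample (points; linear axis) at the 5 regions with the highest weakest enrichment with the others, by factor with the others (filled), alone (open) and in inputs (grey); horizontal lines are means over samples. The regions on chromosomes 16 and 19 have every open point below every filled point of its factor, whereas on chromosome 12 Mef2c and Tbx5 alone reach 225 to 278 CPM.

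The most enriched region of each remaining pattern showed how near some calls lie to the threshold. At chr19:25500771-25501223, called for Gata4 alone only, Gata4 alone read 91.1, 76.1, 68.2 and 26.9 CPM, Mef2c alone 52.3, 62.0 and 68.0 CPM, and Tbx5 alone 98.9, 23.9 and 68.3 CPM. These groups overlapped, and the enrichments alone were 0.71 for Gata4, 0.37 for Mef2c and 0.52 for Tbx5. At chr3:52890609-52891176, called for Mef2c only, the Mef2c alone libraries read 137, 185 and 142 CPM. There Gata4 alone read 44.9 to 68.3 CPM and Tbx5 alone 26.9 to 94.8 CPM, both below every Mef2c library. At chr5:135105104-135105782, called for Gata4 and Mef2c, Gata4 alone read 163, 142, 114 and 117 CPM and Mef2c alone 197, 196 and 231 CPM. Tbx5 alone read 109, 122 and 108 CPM, overlapping Gata4, and the input of Tbx5 alone read 174 CPM. At chr19:36332582-36333072, called for Gata4 and Tbx5, Gata4 alone read 184, 179, 121 and 62.8 CPM and Tbx5 alone 117, 80.7 and 115 CPM, while Mef2c alone read 46.8, 73.3 and 85.0 CPM.

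Just inside the threshold lay chr10:42968292-42968565 and chr1:163066097-163066698, with weakest enrichments of 0.5855 and 0.5863, both for Gata4. Just outside lay chr5:47714223-47714654 at 0.5849 for Gata4 and chr2:72313568-72314083 at 0.5841 for Mef2c.

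The single-factor libraries were then tested against each other, since they had no part in the choice of regions. edgeR's quasi-likelihood test was fitted over the whole table with TMM scaling, so that fold changes can differ from ratios of the CPM given beside them. Of the 598 regions, 516 passed the filter on low counts for Gata4 against Mef2c. Mef2c was higher at 244 of the 516 (47.3%) and Gata4 at 80 (15.5%), against 37.9% and 45.2% of all regions tested. The median log2 difference, Gata4 over Mef2c, was -0.84 at these regions and 0.63 over all. Without the filter, all 598 regions were tested, and Mef2c was higher at 272 and Gata4 at 54, against 29.4% and 29% of all regions. Scaling by library totals turned the split, with Gata4 higher at 179 (34.7%) and Mef2c at 131 (25.4%), so which factor was higher more often depended on scaling. Over all regions tested the shares were then 55.9% and 28.9%. Gata4 was higher at 40, 47 and 38 when Mef2c alone library 1, 2 or 3 was left out. The share of all regions tested that was higher for Gata4 was then 35.0%, 34.7% and 34.8%.

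Tbx5 alone was higher than Gata4 alone at 231 of the 543 regions tested (42.5%), and Gata4 was higher at 40 (7.37%), against 32.9% and 38.4% of all regions tested. The median log2 difference, Gata4 over Tbx5, was -0.66 at these regions and 0.26 over all. Without the filter, Tbx5 was higher at 235 of the 598 and Gata4 at 22, against 22.1% and 20.8%. Tbx5 was higher more often than Gata4 in every setting run, library totals included (191 and 63). With library totals these were 35.2% and 11.6%, against 29.5% and 41.6% of all regions tested. Single libraries moved the counts. Tbx5 was higher at 142 and 146 without Gata4 alone library 1 or 2, against 30.0% and 29.5% of all regions tested. Gata4 was higher at 61 and 69 without Gata4 alone library 2 or 4, against 33.0% and 43.1%. Without Tbx5 alone library 1, 2 or 3, Gata4 was higher at 20, 25 and 23, against 28.9%, 29.4% and 29.7%.

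Between Mef2c and Tbx5 alone the calls were balanced. Mef2c was higher at 215 of the 549 regions tested (39.2%) and Tbx5 at 197 (35.9%), against 45.4% and 45.5% of all regions tested. Without the filter it was 250 and 173 of the 598, against 33.2% and 27.9%. With library totals Mef2c was higher at 138 (25.1%) and Tbx5 at 284 (51.7%), against 39.8% and 50.5% of all regions tested, so the direction of this comparison depended on scaling. Over the 3 tests, 182 of the 598 (30.4%) were higher for Mef2c than for both other factors alone, 143 (23.9%) for Tbx5 and 15 (2.51%) for Gata4, against 24.5%, 17.7% and 19.1% of all regions. With library totals these shares were 16.4%, 25.3% and 5.35%, against 18.9%, 16.8% and 22.0%. A region left out of a test counted as not higher in it, so these shares depend on the filter on low counts. In all 3 comparisons 481 of the 598 were tested, against 9535 of the 30815 regions. Of the 481, 77 passed in none, and the matching count over all regions is not given here.

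The test calls were set beside the patterns of binding alone. The patterns come from the same libraries with another scaling and without library 4 of Gata4 alone, so the counts are a description. The matching counts over all regions with the same patterns are not given here. Nothing particular to the kept regions is therefore read from these counts. All 50 kept regions bound alone by Mef2c only passed as higher for Mef2c than for Gata4, and all 50 as higher than for Tbx5. Of the 120 bound alone by Tbx5 only, 118 were tested against Gata4 with 110 higher for Tbx5, and 119 against Mef2c with 98 higher for Tbx5. Of the 33 bound alone by Gata4 only, 13 passed as higher for Gata4 than for Mef2c and 15 as higher than for Tbx5.

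Among called regions with above-median mean signal and no overlap between groups, the largest difference for Gata4 over Mef2c was at chr2:68772712-68773056, 345 bp. Gata4 alone read 135, 103, 61.6 and 53.9 CPM and Mef2c alone 1.09, 11.4 and 7.44 CPM, without overlap. The log2 difference was 2.89 ± 0.57 (SE; adjusted p = 0.000134). Mef2c reached 47.0, 62.9, 54.7 and 68.1 CPM there with the others, and inputs read 18.1 to 43.6 CPM.

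In the opposite direction stood chr16:43456604-43457112, 509 bp. Mef2c alone read 533, 632 and 573 CPM, and Gata4 alone 18.6, 11.8, 37.4 and 53.9 CPM, a log2 difference of -5.23 ± 0.37 (adjusted p = 1.63e-09). With the others, Mef2c read 681, 604, 443 and 361 CPM and Gata4 122, 85.0, 95.6, 142 and 99.9 CPM. Mef2c thus overlapped between the 2 kinds of cell, whereas Gata4 was above its alone libraries in every sample with the others.

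Among regions taken in this way, Gata4 exceeded Tbx5 most at chr15:36707531-36707968, 438 bp. Gata4 alone read 139, 103, 94.6 and 67.3 CPM and Tbx5 alone 16.5, 14.9 and 25.9 CPM, a log2 difference of 2.29 ± 0.41 (adjusted p = 0.00016). Tbx5 with the others read 109, 106, 77.3 and 150 CPM, each above every Tbx5 alone library.

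Among them, Tbx5 exceeded Gata4 most at chr1:94240379-94240684, 306 bp, where it also exceeded Mef2c. Tbx5 alone read 249, 382 and 285 CPM, Gata4 alone 8.28, 5.08, 13.2 and 13.5 CPM, and Mef2c alone 6.53, 0 and 8.5 CPM. The log2 difference was -5.08 ± 0.43 for Gata4 against Tbx5 (adjusted p = 2.81e-06). For Mef2c against Tbx5 it was -5.20 ± 0.33 (adjusted p = 5.99e-18). Gata4 reached 68.3, 51.5, 53.1, 42.6 and 55.3 CPM with the others and Mef2c 18.3, 44.5, 44.8 and 52.2 CPM, while Tbx5 read 217, 231, 203 and 159 CPM. Gata4 and Mef2c were higher in every sample with the others than alone, at levels under those of Tbx5. The choice of the region favoured that order, so it is a description. The input of Tbx5 alone was the highest input, at 71.8 CPM.

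Mef2c and Tbx5 differed most, among the regions taken in this way, at a pair of regions in opposite directions. At chr8:71658027-71658648, 622 bp, Mef2c alone read 180, 134 and 141 CPM and Tbx5 alone 18.5, 2.99 and 14.1 CPM (log2 difference 4.22 ± 0.32, adjusted p = 9.67e-16). At chr2:134439001-134439309, 309 bp, Mef2c alone read 0, 3.10 and 1.06 CPM and Tbx5 alone 117, 125 and 111 CPM (log2 difference -5.55 ± 0.46, adjusted p = 2.50e-14). The rule fixed that each factor passed with the others, where Tbx5 read 136, 122, 81.5 and 119 CPM at the first and Mef2c 52.2, 62.9, 75 and 58.9 CPM at the second, beside 61.6 CPM in the input of Tbx5 alone. These 6 differences kept their direction and passed in every setting in which they were tested.

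The regions bound by all 3 factors were wide. Their median width was 389.5 bp (range 201 to 1174), against 234 bp over all regions and 320 bp for those bound by exactly 2. Only 3 of them (0.502%) had the smallest width in the table, 201 bp, against 17.9% of all regions. The share of regions that were bound by all 3 was 0.274% under 250 bp, 1.79% from 250 to under 300 bp, 3.47% from 300 to under 400 bp, 6.13% from 400 to under 500 bp and 9.49% from 500 bp. Wider regions hold more reads, and input was 10.1 CPM per 100 bp at the 598 and 11.9 over all regions. Within the 598, width did not go with enrichment alone (Spearman's rho -0.02, 0.02 and 0.03 for Gata4, Mef2c and Tbx5). How the regions and their widths were set is not given in the sources used here, and the part of width in the choice was not tested. The widest, chr10:93212078-93213251, was bound alone by none: Gata4 read 207, 146, 161 and 148 CPM alone and 325, 306, 237, 233 and 383 CPM with the others, over inputs of 122 to 176 CPM.

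**Figure D5:**
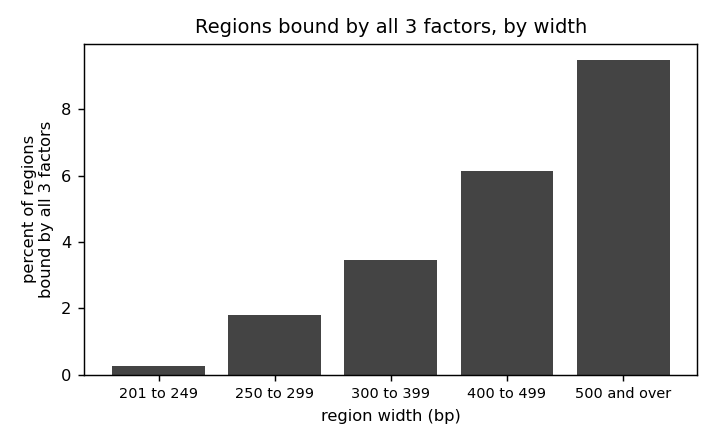
Percent of regions bound by all 3 factors with the others (y axis) by region width in bp (x axis), over all 30815 regions. The share goes up over the 5 ranges, from 0.274% of the narrowest to 9.49% of the widest.

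The 598 regions lay on every chromosome except Y, where 5 regions were counted. Their share of a chromosome's regions went from 1.29% on chromosome 17 to 3.39% on chromosome 19, and was 3.11% on X. They lay closer to other regions of the table than most did, with a median gap of 6680 bp to the nearest region against 12845 bp over all. For 59.5% of them another region lay within 10000 bp, against 43.9% of all regions and 56.9% of those bound by exactly 2. Among themselves, 559 had no other of the 598 within 10000 bp, and 39 did. No background for a set of this size was computed, so nothing is read from these counts. Genes and sequences at these regions were not analysed here.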

How the data were processed

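ChIP-seq and input libraries (33) of 1 mouse fibroblast line were compared over 30815 regions. The authors deposited 1 table of raw, whole-number counts of reads in each region. FastQC, Bowtie2 2.2.4 (alignment) and featureCounts (counting) were used on build mm9, per the submitters' processing notes. For the selection of regions, duplicate handling and strand settings, nothing is stated in those notes: not given in the sources used here. Groups came from the sample labels.

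Counts were summed per group (Gata4 alone, libraries 1 to 3), scaled to CPM by totals over the regions and compared with the 9 summed inputs with a pseudocount of 5 CPM. Per-sample CPM of libraries counted as 1 sample are the means of the CPM of those libraries, whereas the tests used their summed counts. Single factors were compared with edgeR 4.0.16 (R 4.3.3; glmQLFit robust, glmQLFTest, TMM, filterByExpr minimum count 10 and total 15), two-sided, with Benjamini-Hochberg adjustment over all regions tested and a threshold of 0.05. The SE is the size of the log2 fold change over the square root of F. The script was tested on simulated data. Duplicate libraries were sought with a chi-square test over regions with expected counts of at least 5.

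Regions and lists were chosen with earlier results of these data known. Named regions were those with the highest weakest enrichment, overall and per pattern alone. For each test they were those with the largest difference in each direction among called regions with above-median mean signal and groups that did not overlap. The regions nearest the threshold and the widest were also named. Only the first of each kind is described in full. None on chromosome 18 was named. Alternatives were other pseudocounts, thresholds, scalings, inputs and filters, DESeq2 1.42.0, 1 fit of all ChIP groups, a replicate block, and leaving out each library. The motif search was not run, as no genome of this build was used here. Precision is limited by depth, from 97474 counts in the shallowest input.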

Additional observations from a re-analysis of the deposited data

Results flagged for a closer look

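Groups of 4 or 5 samples were screened for a sample set apart from the rest of its group, over 84 groups, and 2 were found; chance gives about 1 in 20 groups. At chr5:47714223-47714654, just outside the threshold, library 4 of Gata4 alone read 49.4 CPM and the other 3 read 8.80 to 10.3 CPM. The same library had 12.7% of the 598 regions at or above the threshold, and the other 3 had 29.1% to 29.9%. Over all regions, library 4 had 9.92% and the others 20.4% to 22.0%. That library is left out of the Gata4 alone enrichment by the rule and enters the tests. Leaving it out changed Gata4 higher than Tbx5 from 40 to 69 regions, and from 38.4% to 43.1% of all regions tested. Tbx5 higher than Gata4 went from 231 to 272 regions, and from 32.9% to 40.1% of all regions tested.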

How the results depend on the processing

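The number of regions bound by all 3 factors was 126 at a threshold of 1, 3009 under TMM scaling and 1310 with an edgeR test against inputs, and 553 to 627 when single libraries were left out. With regions chosen again, the shares bound alone by none, Gata4, Mef2c, Tbx5 and all 3 factors were 15.5%, 50.8%, 52.9%, 60.2% and 25.6% under TMM scaling and 18%, 43.3%, 55.1%, 53.7% and 21.6% with the edgeR test. With the 598 regions kept, as alternatives chosen after seeing the data, they were 10.0%, 49.2%, 69.4%, 73.1% and 36.5%, and 16.6%, 41.8%, 60.5%, 61.4% and 26.4%. The Gata4 alone share was 17.5% at a threshold of 1 (all 3 factors, 7.14%), 25.4% from the mean of libraries and 25.7% with inputs of the same cells. Leaving out single libraries gave 30.6% to 34.9% for none, 28.8% to 31.1% for Gata4, 31.0% to 34.6% for Mef2c, 45.0% to 51.2% for Tbx5 and 9.27% to 10.5% for all 3. Tbx5 was lower with the others by at least 1 at 1 region with a pseudocount of 10 CPM and at 1 to 6 without single libraries; Gata4 was lower at 1 and Mef2c at 49 under TMM scaling, and Gata4 at 0 to 1 without single libraries. Between factors alone, Gata4 was higher than Mef2c at 46 (DESeq2), 179 (library totals; Mef2c at 131) and 38 to 95 (single libraries left out; Mef2c at 214 to 294). Gata4 was higher than Tbx5 at 26 (DESeq2), 63 (library totals), 22 (no filter) and 20 to 69 (single libraries left out; Tbx5 at 142 to 272). Mef2c was higher than Tbx5 at 138 with library totals and at 208 to 225 with single libraries left out (Tbx5 at 169 to 200). The shares over all regions tested moved between settings too. Gata4 was higher than Mef2c at 45.2% in the main test and 26.7% with DESeq2, and higher than Tbx5 at 38.4% and 20.8%. Library totals put Gata4 at 57.7% of the calls against Mef2c in place of 24.7%, Gata4 at 24.8% against Tbx5 in place of 14.8%, and Mef2c at 32.7% against Tbx5 in place of 52.2%. With the replicate number as a block, Gata4 was higher than Tbx5 at 73 regions and Tbx5 at 277; the other block counts were 99 and 277 for Gata4 against Mef2c and 210 and 195 for Mef2c against Tbx5. Same-numbered single-factor libraries did not deviate together over the regions (r from -0.111 to 0.0854), so they were not treated as pairs; three-factor libraries were not compared in this way. The remaining 287 values of these counts and shares moved by less than their limit. The fewest ChIP counts were in library 4 of Gata4 alone and the fewest input counts in the input of Tbx5 alone.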
